A study of Mus musculus with 10 samples.

Results

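The regions described here are 598 places in the mouse genome where TET2 was called in every experiment that could detect it, and where no protein-coding gene lay within 50 kb. Peaks from 8 lists on chromosomes 1 to 19, X and Y were joined into 1 region wherever they shared 1 bp or more, which gave 79350 merged regions. Of these, 4521 held a peak in all 4 libraries of TET2-carrying cells and in none of the 4 control libraries, and are called common TET2 regions. The 598 are the 13.2% of them (exact 95% interval 12.3% to 14.2%, counting error only) that lay more than 50 kb from the nearest protein-coding gene span of the RefSeq annotation of GRCm38.p6, the assembly also named mm10. These regions were chosen by the presence and absence of called peaks in all 8 libraries and by distance, so neither is a finding, and peak strengths in the same libraries are given as description.

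All cells were mouse embryonic stem (ES) cells grown in serum with LIF, CHIR99021 and PD0325901. Wild-type cells (Tet2fl/fl) and Tet2-/- knockout cells were each immunoprecipitated in 2 libraries with a rabbit polyclonal antibody to the N-terminal part of TET2. FLAG-TET2 cells, in which the endogenous TET2 of a Tet2fl/fl line carries a 2x-Flag tag, and untagged parental Tet2fl/fl cells were each precipitated in 2 libraries with FLAG M2 gel. The knockout is thus the control for the TET2 antibody and the parental line for the FLAG gel. Libraries of the TET2-carrying targets (wild-type and FLAG-TET2) are named target libraries, and those of the knockout and parental cells control libraries. Nothing in the labels tells whether replicates were grown separately, so p-values measure only the spread between these libraries, which may be technical, and the number of reads behind each list is unknown. On these chromosomes the target lists held 18820 to 63578 peaks and the control lists 2259 to 36518, with 36518 in parental replicate 1.

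TET2 is an enzyme that oxidises 5-methylcytosine in DNA, a step toward loss of methylation. It has no CXXC DNA-binding domain of its own and is brought to chromatin by other proteins. In ES cells it is known for acting at enhancers, short stretches that raise transcription of genes that can lie far away along the chromosome. Long gene-poor stretches, often called gene deserts, commonly flank genes for developmental transcription factors and for neuronal adhesion proteins. Distance to a gene does not say which gene, if any, a region acts on, and flanking genes are named below only as landmarks.

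Far from protein-coding genes is not far from all transcripts. Of the 598 regions, 127 (21.2%) touched the span of an annotated noncoding gene, 120 of them (20.1%) a long noncoding RNA (lncRNA). Among all 12932 merged regions this far from protein-coding genes the share in a lncRNA was 15.8%, and among the 7392 of them with a peak in any control list it was 14.1%. The 300-base promoter windows of 19 lncRNA genes, from 250 bases before to 50 bases after the annotated start, overlapped a far common region. That was 20 (0.593%) of the 3372 promoter windows far from protein-coding genes. Any merged region overlapped 185 (5.49%) of them, and a region with a control peak 89 (2.64%). In 8 of the 19 genes the summits of all 4 target libraries fell inside the window, and in 7 none did. Of those 8 windows, 6 are printed here because they place TET2 summits on a known sequence and show how unlike each other the sequences are. They come from RefSeq (GRCm38.p6) and run 5′ to 3′ on the strand of the gene. The capitals mark CpG, the dinucleotide whose cytosine is methylated in mammals.

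C330004P14Rik: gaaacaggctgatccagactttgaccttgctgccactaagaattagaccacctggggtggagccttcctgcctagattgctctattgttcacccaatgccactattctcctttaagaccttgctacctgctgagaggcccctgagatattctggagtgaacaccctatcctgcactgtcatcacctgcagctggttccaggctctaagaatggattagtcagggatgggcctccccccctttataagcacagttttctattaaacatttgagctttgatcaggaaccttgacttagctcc
C330002G04Rik: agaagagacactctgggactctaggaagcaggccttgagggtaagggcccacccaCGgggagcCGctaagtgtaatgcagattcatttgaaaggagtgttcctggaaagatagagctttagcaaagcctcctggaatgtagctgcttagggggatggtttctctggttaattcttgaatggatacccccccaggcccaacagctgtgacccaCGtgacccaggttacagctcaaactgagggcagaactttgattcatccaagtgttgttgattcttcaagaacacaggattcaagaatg
Platr26: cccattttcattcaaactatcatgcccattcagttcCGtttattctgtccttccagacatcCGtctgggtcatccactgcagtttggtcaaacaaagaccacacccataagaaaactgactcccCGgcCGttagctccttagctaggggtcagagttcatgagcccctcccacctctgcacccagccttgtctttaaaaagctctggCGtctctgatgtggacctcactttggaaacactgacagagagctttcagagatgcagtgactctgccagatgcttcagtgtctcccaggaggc
Celrr: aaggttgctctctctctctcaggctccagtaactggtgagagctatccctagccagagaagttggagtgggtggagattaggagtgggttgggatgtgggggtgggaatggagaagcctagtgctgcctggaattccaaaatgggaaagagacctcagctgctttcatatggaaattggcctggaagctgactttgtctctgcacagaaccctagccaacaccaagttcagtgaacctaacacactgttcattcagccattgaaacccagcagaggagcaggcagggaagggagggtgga
Dubr: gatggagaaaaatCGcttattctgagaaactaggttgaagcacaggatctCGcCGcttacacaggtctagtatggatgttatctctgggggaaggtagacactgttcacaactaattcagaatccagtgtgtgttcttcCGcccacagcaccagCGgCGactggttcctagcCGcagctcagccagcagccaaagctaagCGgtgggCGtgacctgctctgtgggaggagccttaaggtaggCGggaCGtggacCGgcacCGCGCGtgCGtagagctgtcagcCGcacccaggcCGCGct
1700030C10Rik: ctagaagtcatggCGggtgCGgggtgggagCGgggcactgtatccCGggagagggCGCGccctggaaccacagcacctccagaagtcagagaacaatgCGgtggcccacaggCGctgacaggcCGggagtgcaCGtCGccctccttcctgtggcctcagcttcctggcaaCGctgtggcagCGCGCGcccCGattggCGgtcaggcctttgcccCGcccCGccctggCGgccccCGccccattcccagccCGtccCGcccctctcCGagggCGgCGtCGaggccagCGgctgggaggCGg

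The windows of C330004P14Rik (chr10:15791527-15791826, plus strand) and Celrr (chr1:121087155-121087454, plus strand) held 0 CpG. That of C330002G04Rik (chr19:23075857-23076156, minus strand) held 3, and that of Platr26 (chr2:71719167-71719466, plus strand), a lncRNA named for its pluripotency-associated expression, held 5. The windows of Dubr (chr16:50732724-50733023, minus strand) and 1700030C10Rik (chr12:20815730-20816029, minus strand) held 19 and 29. Across the 20 windows of the 19 genes (C330002G04Rik has 2 annotated starts) the median was 4 CpG and 50.5% GC. The 3372 windows far from protein-coding genes had medians of 3 CpG and 45.7% GC, and all 32851 windows in the table had 7 CpG and 52.7% GC. The TET2 summits of the printed windows lay upstream of the start: at -189, -167, -167 and -164 bases in C330004P14Rik for wild-type replicates 1 and 2 and FLAG-TET2 replicates 1 and 2, and at -2, -47, -38 and -80 in Celrr. The window of Gm33714, not printed, also held all 4 summits, at 14, -27, 15 and 15 bases, where positive values lie downstream. The authors' fold enrichment, for which the reference library is not given in the sources used here, was at the C330004P14Rik region 17.96, 10.1, 22.0 and 13.6 in the same order, and at the Dubr region 7.40, 5.49, 8.81 and 7.19. At the most CpG-rich printed start, 1700030C10Rik, it was 13.5, 8.65, 7.61 and 8.60, and at Celrr it was 14.5, 9.87, 15.2 and 7.47. In both wild-type replicates and FLAG-TET2 replicate 1, the printed examples with 0 to 5 CpG had higher folds than those with 19 and 29. In FLAG-TET2 replicate 2 they overlapped. This order did not hold over all 8 windows with 4 summits inside. In wild-type replicates 1 and 2, 4833407H14Rik with 4 CpG had folds of 8.21 and 6.34. Gm33714 with 5 CpG had 6.40 and 5.94. Both lay below 1700030C10Rik in the same libraries. A relation of fold to CpG count was not tested.

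The start of 4833407H14Rik (chr19:53460372-53460671, plus strand) is shown with a different element in capitals, ATGCAAAT, the octamer bound by OCT4 and its relatives.

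4833407H14Rik: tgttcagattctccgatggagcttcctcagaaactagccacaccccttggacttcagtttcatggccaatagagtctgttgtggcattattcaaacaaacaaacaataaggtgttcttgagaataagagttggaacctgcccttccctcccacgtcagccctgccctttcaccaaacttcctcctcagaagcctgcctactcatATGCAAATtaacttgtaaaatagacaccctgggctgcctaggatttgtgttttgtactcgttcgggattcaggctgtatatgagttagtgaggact

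The centre of this octamer lay 42.5 bases upstream of the annotated start (-42.5), and the summits lay at -82, -67, -95 and -81 bases. The folds were 8.21, 6.34, 11.6 and 4.38. The octamer on either strand was in 1 of the 20 windows (5.00%), in 2.55% of the far windows and in 1.74% of all windows. ATTGTTATG or ATTGTCATG, the start of the joint OCT4 and SOX2 element, was in 1 window (5.00%, against 0.682% of far windows and 0.271% of all). AAGGTCA, bound by ESRRB, was in 3 (15.0%, against 5.84% and 4.72%). GGGTGTGG or GGGCGTGG, bound by KLF factors, was in 4 (20.0%, against 3.83% and 8.58%), and AGGGGGC, the core of the CTCF site, was in 4 (20.0%, against 3.74% and 10.6%). TTCCNGGAA, bound by STAT3, was in 3 (15.0%, against 1.13% and 1.15%), of which 2 were the overlapping windows of C330002G04Rik. CACGTG, the E-box bound by MAX and its partners, was in 3 (15.0%, against 5.55% and 7.15%), again with 2 from C330002G04Rik. The other was at Gm32696, where 0 of the 4 summits lay in the window. The same held for the OCT4 and SOX2 element, whose window was that of Gm38823. It also held for ESRRB at Gm29938 and for the CTCF core at Gm31155 and Gm30604. These shares thus do not place the motifs at summits. All motifs were searched on both strands, and with 20 windows 1 window is 5.00%. The sequences of the other regions were not used here.

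Every target library gave these regions peaks as strong as those of the other 3923 common regions. The median fold enrichment was 10.5 in wild-type replicate 1 (range 3.50 to 28.9) and 6.95 in wild-type replicate 2 (3.07 to 16.9). It was 12.2 in FLAG-TET2 replicate 1 (4.41 to 31.9) and 7.39 in FLAG-TET2 replicate 2 (2.81 to 17.9). Replicate 2 was lower than replicate 1 in both antibody series. The other common regions had medians of 10.4, 6.90, 11.8 and 7.19 in the same libraries. The difference of the medians on the log2 scale was above 0 in 4 of 4 libraries, with a mean of 0.02 (exact sign-flip test over 4 libraries, two-sided, p = 0.125, the smallest p that 4 libraries allow). Without parental replicate 1 in the rule that mean was 0.11. Averaging log2 values in place of medians gave 0.00811 (exact sign-flip p = 0.5), and peaks with a -log10 q of at least 5 gave 0.0126 (exact sign-flip p = 0.5). In both of these settings the 4 libraries did not all agree in sign. Among common regions the highest folds were near genes: 35.4, 23.96, 38.8 and 26.2 in the other common regions. That set is larger, 3923 regions against 598, and a larger set tends to have a higher maximum. A -log10 q of at least 20 in the weakest of the 4 libraries was reached by 25 far regions (4.18%) and by 308 of the others (7.85%), whereas a value of at least 5 was reached by 496 (82.9%) and by 80.2%.

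**Figure D1:**
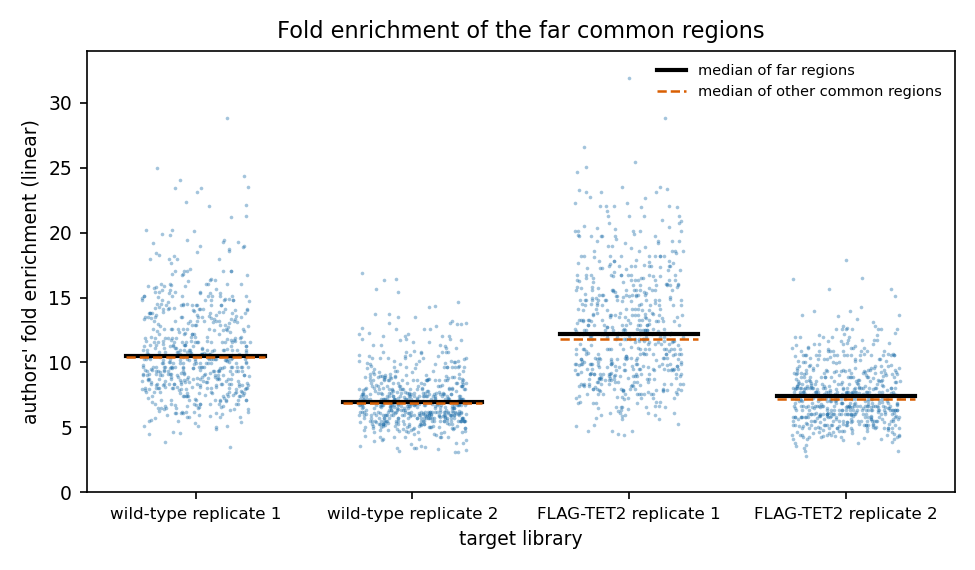
Fold enrichment given by the authors (linear scale) for each of the 598 far common regions in the 4 target libraries. Points are regions, black bars are their medians (10.5, 6.95, 12.2 and 7.39), and orange dashed bars are the medians of the 3923 other common regions, which nearly coincide with them.

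The libraries with fewer peaks set the weakest value. The lowest of the 4 -log10 q values came from wild-type replicate 2 in 319 regions and from FLAG-TET2 replicate 2 in 265. The far regions were slightly narrower, with median peak widths of 327.5, 221, 374 and 240 bp against 346, 226, 382 and 243 bp. The log2 difference was below 0 in 4 of 4 libraries, with a mean of -0.04 (exact sign-flip test, two-sided, p = 0.125, again the smallest possible).

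Summits from the TET2 antibody and the FLAG gel lay about as close together as those of replicates of 1 capture. The rule already required overlapping peaks, which limits how far apart they can lie. Between any 2 of the 4 target libraries the summits of the far regions lay a median of 22.5 to 28 bp apart, and 46.5% to 54.7% were within 25 bp. The pairs that cross from the TET2 antibody to the FLAG gel had medians of 22.5, 28, 27 and 28 bp, and the pairs within 1 capture had 23 and 26 bp. The other common regions had pair medians of 23 to 27 bp. Over 100 bp apart were 5.02% to 8.70% of the far regions. The 4 summits together spanned at most 50 bp in 276 regions (46.2%, against 46.9% of the other common regions), with a median of 53 bp and a range of 4 to 859 bp. How strong a region was varied more between the wild-type and FLAG-TET2 series than within them. Spearman correlations of fold across the 598 regions were 0.62 between the wild-type replicates, 0.66 between the FLAG-TET2 replicates and 0.42 to 0.53 across the series. For the other common regions the same correlations were 0.68, 0.74 and 0.49 to 0.62, higher in every pair of libraries. Cell line and capture both differ between the series and cannot be told apart. All these values are descriptions across regions, which share the library and its depth and are not replicates.

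**Figure D2:**
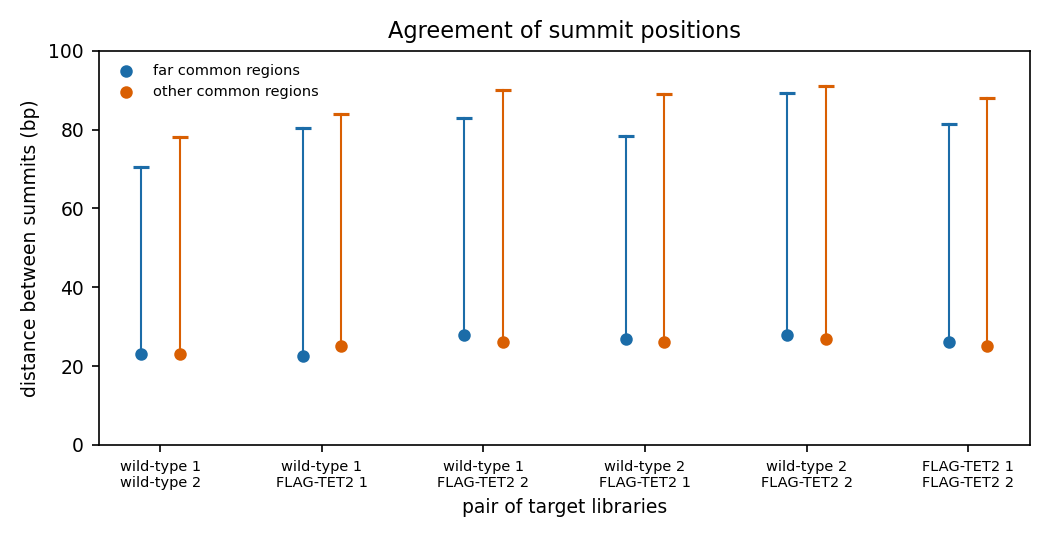
Distance between the summits (bp) of each pair of target libraries, for the 598 far common regions (blue) and the 3923 other common regions (orange). Dots are medians (22.5 to 28 bp for the far regions) and caps are the 90th percentiles, all below 100 bp.

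The region ranked highest in its lists lay in the gap between Ripk2, a kinase of innate immune signalling, and Mmp16, a matrix metalloproteinase, at chr4:17092163-17092458, 761 kb from Mmp16 and 928 kb from Ripk2. Its folds were 23.1 and 16.4 in the wild-type replicates and 25.04 and 15.1 in the FLAG-TET2 replicates, and its -log10 q was 66.3, 38.5, 71.5 and 33.7. All 4 folds are more than 2 times the median of the 598 far common regions in the same library. The region between Plekhb2 and Hs6st1, a heparan sulfate sulfotransferase, at chr1:35944332-35944698 had folds of 19.0, 11.7, 23.3 and 14.2 and lay within the lncRNA Gm33176. The region between Ctnna3, an alpha-catenin, and Reep3 at chr10:66897059-66897740 had folds of 24.9, 16.3, 22.0 and 11.5. Between Zfpm2, a cofactor of GATA factors, and Oxr1 at chr15:41352001-41352551 they were 24.4, 16.9, 20.9 and 12.8. Between Med30 and Ext1, which makes heparan sulfate chains, at chr15:52967785-52968297 they were 23.4, 12.1, 23.5 and 15.7. The next 4 by rank were chr11:117598217-117598645 (Septin9 and Tnrc6c), chr11:71293561-71294052 (Nlrp1b and Wscd1), chr2:161187476-161188041 (Chd6 and Ptprt) and chr12:35642179-35643187 (Ahr and Agr3), with folds from 9.29 to 26.6. The tenth, at chr12:12803692-12804006, lay 132 kb from Mycn, a MYC family transcription factor, with 13.3 and 9.96 with the TET2 antibody and 22.7 and 12.2 with the FLAG gel. Its FLAG-TET2 values were higher than its wild-type values of the same replicate number in both replicates. The ranking used the mean within-list percentile of -log10 q, so the high values follow from it.

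The regions reached far into gene deserts. Their distance to the nearest protein-coding gene ran from 50.0 to 1594 kb with a median of 128 kb and quartiles of 79.5 and 283 kb. More than 100 kb from any such gene were 370 (61.9%), more than 500 kb 68 (11.4%) and more than 1000 kb 19 (3.18%). All merged regions past the 50 kb limit reached farther, with 69.0%, 17.5% and 6.29%. The farthest, chr5:56122197-56122472, lay 1594 kb from Pcdh7, a protocadherin, and had folds of 13.2, 5.49, 12.2 and 5.21. The next 2 were also beside protocadherin genes. chr14:91478151-91478917 lay 1535 kb from Pcdh9 with folds of 8.51, 3.44, 8.68 and 9.21, and chr14:83008499-83008905 lay 1435 kb from Pcdh17 with 16.8, 8.23, 18.2 and 11.6. Nothing marks the 50 kb limit in the counts: 36 common regions lay 45 to 50 kb from a gene and 42 lay 50 to 55 kb away. Just inside it, chr10:39224418-39224806, 50.04 kb from Ccn6, had folds of 13.5, 10.4, 10.3 and 6.06, and chr5:118509819-118510254, 50.08 kb from Med13l, had 10.4, 7.44, 10.3 and 7.47. Just outside, chr2:116942359-116942651, 49.9 kb from Tmco5, had 6.10, 5.12, 7.22 and 5.24.

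Sequence more than 50 kb from genes made up 1007 Mb, which is 37.4% of the sequence between the outermost genes of the chromosomes, and held 0.590 common regions per Mb. The remainder held 2.33 per Mb. Peaks of every kind were sparser there, with 12.8 merged regions per Mb against 39.4. Common regions fell from 3.40 per Mb within 10 kb of a gene to 1.02 at 50 to 100 kb, 0.402 at 200 to 500 kb and 0.256 beyond 1000 kb. Regions present in 2 or more control lists also thinned, from 8.18 per Mb within genes to 0.734 at 500 to 1000 kb and 0.877 beyond. As a share of merged regions, common regions were 6.92% at 10 to 50 kb and 2.34% beyond 1000 kb. Over all merged regions the share called common was 5.70%, past the 50 kb limit it was 4.62%, and within the limit it was 5.91%. The rule fixes these shares and nothing is read from them.

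**Figure D3:**
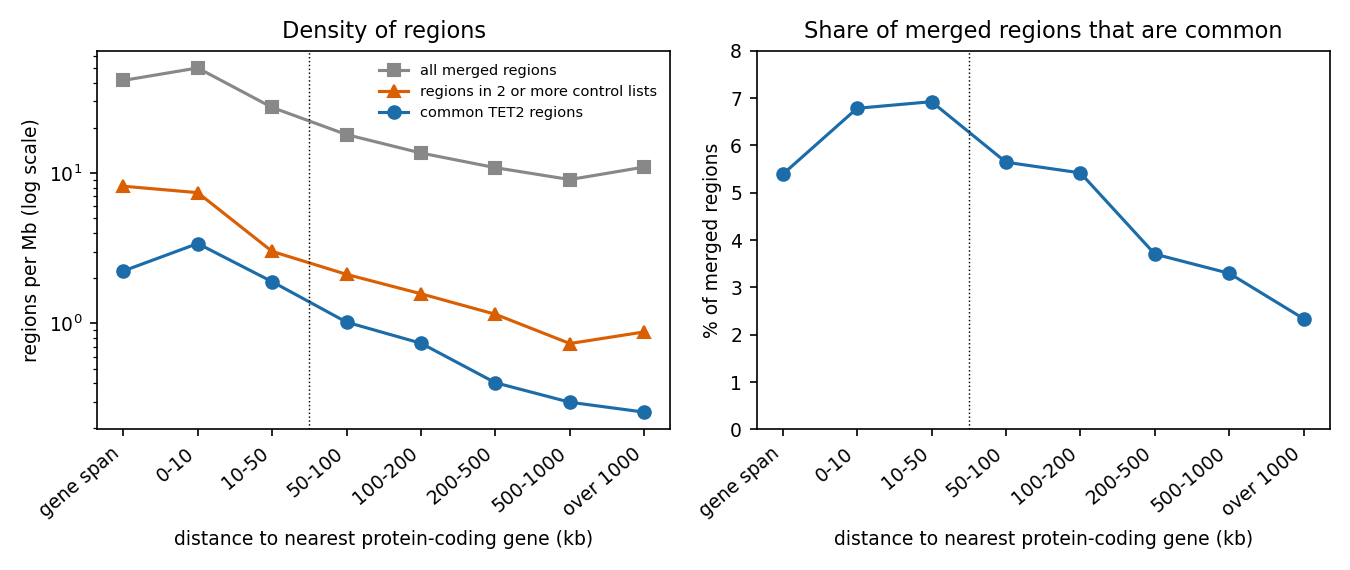
Left, regions per Mb (log scale) by distance from the nearest protein-coding gene for all merged regions, regions in 2 or more control lists and common TET2 regions; right, common regions as a percentage of merged regions. The dotted line marks 50 kb; common regions fall from 3.40 per Mb within 10 kb of a gene to 0.256 per Mb beyond 1000 kb.

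Control peaks took away fewer of the candidates here than near genes. Of 988 far regions with a peak in all 4 target lists, 598 (60.5%) had none in a control list, whereas near genes it was 3923 of 10954 (35.8%). Parental replicate 1 had a peak in 23.8% of the far candidates and in 57.4% of those near genes. For parental replicate 2 the shares were 4.45% and 26.9%, for knockout replicate 2 they were 23.8% and 30.4%, and for knockout replicate 1, the shortest list, 1.52% and 6.22%. Each control list thus held a lower share of the far candidates. Without parental replicate 1 the shares with no control peak were 73.7% and 54.5%, and without knockout replicate 2 they were 75.4% and 41.4%. These shares use the rule's own measure and describe what it kept. Many regions missed the rule by 1 list: 583 far regions had 3 of 4 target peaks and no control peak, and the missing list was wild-type replicate 2 in 385 and FLAG-TET2 replicate 2 in 193. A control peak lay within 1 kb of 72 of the 598 regions (12.04%) without touching them, 54 of them with 1 from parental replicate 1, and within 10 kb of 211 (35.3%). Of the 5540 far merged regions without a control peak, 8.72% had a control peak within 1 kb and 28.2% within 10 kb, so the common ones had them nearby more often. Of the other common regions it was 14.2% and 54.8%.

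The target lists did not hold a higher share of peaks far from genes than the control lists. With the TET2 antibody that share was 9.35% (replicate 1) and 8.07% (replicate 2) in wild type against 8.19% and 11.4% in knockout cells. With the FLAG gel it was 14.7% and 10.6% in FLAG-TET2 cells against 17.3% and 11.4% in the parental line. The groups overlapped in both captures. The mean was 10.7% for the target lists and 12.1% for the control lists, a difference of -1.39 percentage points (exact permutation test within each capture, two-sided, 36 arrangements, p = 0.444, smallest possible 0.0556). Leaving out parental replicate 1 turned the difference to 0.349 points (exact permutation p = 0.833). Among peak classes, 13.2% of the common regions lay far from genes, against 16.3% of all merged regions and 10.8% of those in 2 or more control lists. Of merged regions in control lists and no target list, 27.7% did, but 2100 of these 2667 far regions came from parental replicate 1 alone.

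**Figure D4:**
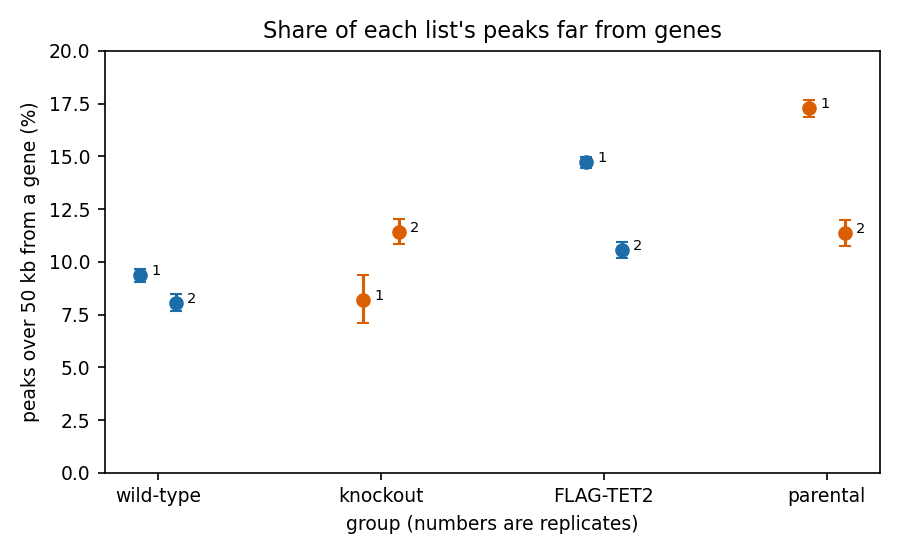
Percentage of the peaks of each list that lay more than 50 kb from a protein-coding gene, target groups in blue and control groups in orange, with replicate numbers. Bars are exact 95% intervals (counting error only); parental replicate 1 is highest at 17.3% and wild-type replicate 2 lowest at 8.07%.

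The regions were spread over the autosomes and scarce on the X chromosome. The 589 autosomal regions came to 0.682 per Mb of far sequence, with 0.403 to 0.976 on the individual autosomes. On X there were 9, or 0.115 per Mb, below every autosome. Peaks of every kind were fewer on X too, with 3.02 merged far regions per Mb against 14.7, and common regions made up 3.83% of them on X and 4.65% on the autosomes. On Y there were 0 among 23 far merged regions, which allows a share of up to 13.04% (3 regions of the total, counting error only).

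Most regions lay alone in their gap between genes. Of 2967 gaps with sequence past the limit, 433 (14.6%) held a far common region: 323 held 1, 76 held 2 and 34 held 3 or more, together 119 regions. Longer gaps more often held one, from 5.71% of gaps up to 200 kb to 45.2% of those over 2000 kb, while the density was lower in the longer gaps, 1.58 against 0.282 per Mb of far sequence. Within 25 kb of another far common region were 77 (12.9%), in 35 runs of 2 or 3. The shortest of the 7 runs of 3 covered 8.40 kb between Med13l and Tbx3.

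Of the 5 gaps with most regions, the 4 described here adjoined genes for regulators of transcription and chromatin, although the gaps were named for their counts and the flanking genes were seen afterwards. A pair of neighbouring gaps on chromosome 5 held 11 between them. The gap from Spring1 to Med13l, a subunit of the Mediator kinase module, is 297 kb long and held 6, and the 905 kb gap from Med13l to Tbx3, a T-box factor of naive pluripotency, held 5. Counting these, the far merged regions numbered 28 in the first, 9 of them with a control peak, and 40 in the second, 12 with a control peak. The gap from Cd83 to Jarid2, a subunit of Polycomb repressive complex PRC2, held 5 of 50. The short 199 kb gap from Chd2, a chromatin remodeller, to Fam174b held 4 of 10. In the Tbx3 run, the middle region, chr5:119584820-119585407, was 85.1 kb from Tbx3 and had folds of 15.1, 8.41, 14.4 and 6.69. Its neighbours at chr5:119579344-119580415 (6.61, 5.70, 8.96 and 6.83) and chr5:119587480-119587739 (5.84, 3.43, 6.45 and 3.62) were weaker in each wild-type library and in FLAG-TET2 replicate 1.

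**Figure D5:**
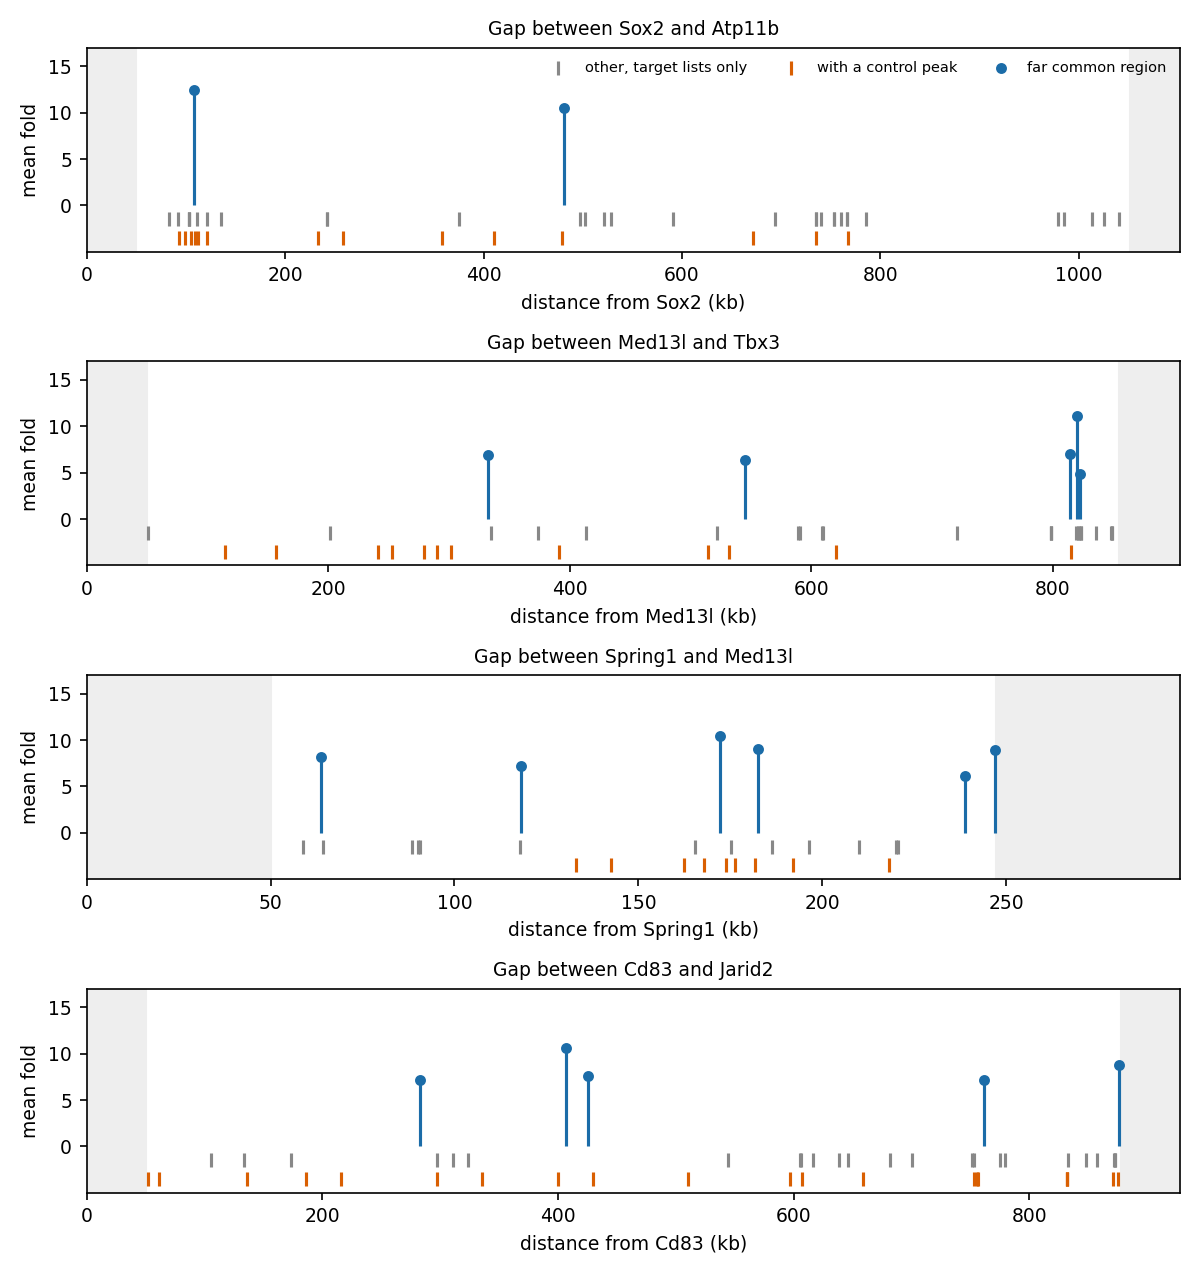
Merged regions in 4 gaps between protein-coding genes, by distance (kb) from the left gene. Blue stems are far common regions at their mean fold over the 4 target libraries, grey ticks other regions of target lists alone, orange ticks regions with a control peak, and grey shading the 50 kb beside each gene; the 3 regions near Tbx3 form the tightest run.

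Genes of the pluripotency network were among the neighbours. Of 22 genes listed as core pluripotency, 12 adjoined sequence past the limit and 6 of those flanked a far common region. For genes of the naive state and LIF signalling it was 4 of 13. Over all 4752 protein-coding genes that adjoin such sequence the share was 17.5%. Gap length differs between lists, so density is given too: the core genes' gaps held 14 regions, 1.64 per Mb of far sequence, where the density of gaps of their length would give 4.61, and the naive genes' gaps held 10, 2.26 per Mb, where it would give 2.67. The density over all gaps was 0.590 per Mb. A few gaps carried these totals, with 5 of the 14 in the Jarid2 gap and 5 of the 10 in the Tbx3 gap. The core list was broad: Jarid2, Myc and Mycn had 5, 3 and 1 of its regions, and Sox2, Sall1 and Prdm14 had 2, 2 and 1. No test was made of the lists, and without wild-type replicate 2 the core genes had 24 regions.

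Sox2, a core pluripotency factor, had 2. The first, chr3:34759811-34760844, lay 107 kb downstream in the stretch that holds a known distal enhancer of Sox2, and had folds of 14.5 and 7.18 with the TET2 antibody and 17.5 and 10.5 with the FLAG gel. It was not the strongest TET2 region there: merged regions centred 105 and 109 kb from Sox2 had peaks in all 4 target lists with mean folds of 17.3 and 28.5, against 12.4 for the region kept, but each also had a peak in 1 control list. The second, chr3:35133551-35133996, 481 kb away, had 10.6, 7.92, 13.3 and 10.3. Myc, a growth-promoting transcription factor, had 3 within 31.6 kb, all inside the lncRNA Pvt1. Of these chr15:62092618-62093220, 102 kb from Myc, was the strongest, with 22.1 and 13.02 with the TET2 antibody and 13.5 and 9.61 with the FLAG gel. The other 2, 116 and 133 kb from Myc, had folds from 6.01 to 10.8.

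In the Cd83 to Jarid2 gap the leading region was chr13:44210072-44210535, 407 kb from Cd83 and 520 kb from Jarid2, with 14.7, 10.0, 9.67 and 8.03. Sall1, a zinc finger factor, had 2 and Prdm14, a repressor that supports naive pluripotency, had 1, at 53.2 kb. Klf5, a Krüppel-like factor of the naive state, had 2 regions with opposite order between the wild-type and FLAG-TET2 libraries. chr14:99375248-99375572, 61.8 kb away, had 24.1 and 13.8 with the TET2 antibody and 8.36 and 6.34 with the FLAG gel, whereas chr14:99510100-99510625, 197 kb away, had 11.6 and 7.27 with the TET2 antibody and 22.3 and 11.7 with the FLAG gel. Zfp281 and Nr5a2, a zinc finger factor and a nuclear receptor, face each other across a 212 kb gap with a run of 3 in 16.7 kb. The strongest of these, chr1:136694882-136695459, had 13.5, 6.69, 10.2 and 7.999.

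Genes of the formative and primed states, which follow naive pluripotency, had 8 regions beside 5 of 11 genes, where gap length would give 4.08. Cdh2, which encodes N-cadherin, had 3, the leading one at chr18:17418869-17419262, 610 kb away, with 11.3, 10.5, 16.7 and 6.69. Dusp6, a phosphatase of the ERK pathway, had 2, with 9.98, 9.62, 15.6 and 8.32 at chr10:99472857-99473174. Sox4 had 1 at 168 kb, and Otx2, a homeobox factor, had 1 at 86.5 kb inside the lncRNA Otx2os1 (8.31, 6.16, 7.31 and 5.82). Spry2, an inhibitor of receptor kinase signalling, had 1 at 436 kb.

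Lineage transcription factors, mostly silent in ES cells, had 8 beside 6 of 21 genes, where gap length would give 5.84. Sox9, a factor of cartilage and gonad development, had 3. The strongest, chr11:112959613-112959970, lay 172 kb away and had 19.3 and 11.5 with the TET2 antibody and 17.9 and 12.6 with the FLAG gel. Gata3 had 1 at 414 kb (8.70, 7.19, 17.8 and 12.6) and Eomes 1 at 72.9 kb (10.4, 5.73, 10.1 and 8.91). Hand2, Runx1 and Sox1 had 1 each.

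Homeobox and other developmental regulators that lie beside deserts flanked 25 regions, 0.603 per Mb, where gap length would give 21.2, and 15 of 46 genes were involved. The Meis1 region at chr11:19811370-19812083 was strong in wild-type replicate 1, with 23.5, 10.4, 15.4 and 9.84, and had 2 more within 36.9 kb. The Irx genes, homeobox factors in 2 clusters, had 3 between Irx2 and Irx4 and 3 between Irx3 and Irx5. Of these chr13:73099447-73099871 had 10.7, 8.002, 17.7 and 11.4.

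Neuronal adhesion and synapse genes had the highest share of genes with a neighbouring region and, among the lists with any region, the lowest density. Of the 44 that adjoin far sequence 25 (56.8%) flanked a far common region, 39 regions in all, but their gaps are long, with a median of 1924 kb for the longer gap of each gene against 245 kb over all genes that adjoin far sequence. The density was 0.389 per Mb, and gaps of that length would give 36.7 regions. Cdh9, a classical cadherin, had 5, the leading one 58.0 kb away at chr15:16915158-16915722 with 16.5, 10.5, 16.3 and 9.38. Pcdh9 also had 5. The regions nearest Slitrk1 and Slitrk6, synaptic adhesion proteins, lay 1929 and 361 kb away, at chr14:106980754-106981193 and chr14:111116564-111116959, with 19.9 and 14.1 in wild-type replicate 1 and 22.0 and 17.4 in FLAG-TET2 replicate 1.

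Of 20 genes for TET enzymes and DNA methylation 4 adjoined far sequence, and Rybp, a Polycomb subunit, was the 1 with neighbours, 3 regions between Rybp and Shq1. The first, chr6:100424798-100425204, 137 kb from Rybp, had 11.9, 6.14, 12.3 and 8.09. Housekeeping genes had 0 regions, with 1 of 20 genes beside far sequence, and fibroblast genes, listed as markers of feeder cells, had 0 with 7 of 14. Gap length would give 0.244 and 1.60 regions there, so these lists were too small to show a low density.

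Among noncoding genes, Pvt1 had 3 regions and 6 other lncRNAs had 2 each. Platr11, Platr22 and Platr26, named for their pluripotency-associated expression, and Lncenc1, an ES cell lncRNA, had 1 each. 1 further region, chr14:64589659-64590496, ended 161 bases (0.161 kb) from Mir124a-1, which encodes a microRNA of neurons, inside the host transcript Mir124a-1hg. Mir28b lay 1.72 kb and Mir205 2.42 kb from a region. More than 50 kb from any annotated gene, coding or not, were 158 of the 598 (26.4%, against 35.1% of all far merged regions).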

How the data were processed

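Peak lists of 8 ChIP-seq libraries were used. Input and IgG libraries were not analysed here. Cells were crosslinked with DSG and formaldehyde, per the labels' protocols. Tools named in the submitters' processing notes, without versions or roles, are MACS2, Bowtie2, Trimmomatic, DESeq2 and DiffBind, and the build is mm10. Each deposited list gives, per peak, a score, a fold enrichment (ratio), −log10 p-value, −log10 q-value and summit. These values are the authors'. The peak names carry the word IgG, but the library that the fold is relative to is not given in the sources used here. Read counts per library are not given, so depth is unknown.

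Peaks on unplaced sequence (2 to 34 per list) were left out. Peaks sharing 1 bp or more were merged. Distance was measured to the span of 21883 protein-coding genes (RefSeq GRCm38.p6). Libraries were compared by exact permutation within each capture and exact sign-flip tests over the 4 target libraries. Python 3.11.15, pandas 2.3.3, numpy 2.4.6 and scipy 1.17.1 were used, and the scripts were tested on simulated peaks. Gene lists were looked up by symbol (9 lists). Expected counts from gap length use the density of all gaps in the same length class.

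Regions named are the top 10 by percentile of −log10 q within each list, averaged over target lists, the 3 farthest, the 5 gaps with most regions (ties to the shortest gap), up to 3 per gene list, 2 on each side of the limit and the longest runs. Of these, 1 gap and 1 region just outside the limit are not reported here. Regions at lncRNA starts and microRNAs, the Sox2 neighbours and further genes of the lists were named after their values were seen. Members and lists were chosen with earlier results of these data known. Sequence features of all regions were planned but not run, and the genome was not used here.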

Additional observations from a re-analysis of the deposited data

How the results depend on the processing

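The number of far common regions was 598, and 592 to 626 with a −log10 q of at least 5, with 200 bp summit windows or with at least 100 bp shared. It was 912, 370 and 192 with limits of 25, 100 and 200 kb, and 158 past 50 kb from any annotated gene. The share of common regions that were far was 20.2%, 8.18% and 4.25% with those 3 limits. Leaving out 1 library at a time gave 598 to 982 regions, with 982 without wild-type replicate 2, and shares of 10.8% to 14.1%, with 10.8% without parental replicate 1. The same omissions gave far-peak share differences of −2.73 to 0.349 points, reversed without parental replicate 1, log2 fold differences of 0.0243 to 0.112 and log2 width differences of −0.118 to −0.0214. No alternative brought any of these tests past 0.05, which the designs could not reach (smallest p 0.0556 and 0.125). Treating equal replicate numbers as pairs (replicate block) left the far-share difference at −1.39 points with exact sign-flip p = 0.375 over 4 pairs, where numbers alone pair the samples. Leave-one-out counts beside core, naive and formative genes, chosen after seeing the data, were 14 to 24, 10 to 15 and 8 to 12. With the unknown read depth, absence of a peak from a list, including knockout replicate 1 with 2259 peaks, does not show absence of signal.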
